A study of Microtus ochrogaster with 23 samples.

Results

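The windows described here are lowly methylated stretches of the prairie vole genome that lie away from the windows richest in CpGs. They were seen by reduced representation bisulfite sequencing (RRBS) of the dentate gyrus (DG). RRBS reads DNA fragments cut by the enzyme MspI, and a cytosine's level is given as the percentage of reads that kept a C after bisulfite treatment. The genome outside chromosome X was divided into 1-kb windows. A cytosine entered where 4 or more animals of every group covered it with 10 or more reads, and a core window, which stands in for a CpG island, held at least 30 cytosines with 10 reads in all 23 animals. The members were chosen by their own methylation level: a member had 3 to 14 such (counted) cytosines, no core window within 10 windows on its chromosome (open sea), and a level of 10 to 50% when the reads of all animals were pooled. Of 50389 windows with at least 3 counted cytosines, 27581 were open sea and 9838 were members, which is 35.7% of the open-sea windows and 19.5% of all windows. The members held 53471 of the 1069286 counted cytosines.

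The voles were wild-type adults, and each animal gave 1 library from a punch of DG tissue. Sexually naive males housed with same-sex siblings were labelled “Attacker” (n = 6) or “Parental” (n = 6) by their response to an unfamiliar pup, and pair-bonded animals with their own litter gave the “Father” (n = 5) and “Mother” (n = 6) groups. “Mother” is the only female group, so “Father” vs “Mother” is also a comparison of sexes. The labels name no batch, and p-values below measure the spread between animals of a group.

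In mammalian genomes most CpGs are methylated, CpG islands at gene starts are mostly free of methylation, and distal enhancers bound by transcription factors often have low to intermediate levels over short stretches. Active enhancers are recognised by open chromatin and by histone marks, and their methylation differs between cell types. An intermediate level in a tissue can come from cells that differ, from alleles that differ or from neighbouring cytosines that differ, and in bulk tissue a change in the mix of cells and a change within cells cannot be told apart.

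Chromatin was not measured in the data used here, so the name enhancer-like could not be checked against open chromatin or a histone mark, and the windows are called members. Position and surroundings could be described. Of the 7373 members on chromosomes with placed genes, 3870 (52.5%) lay inside a gene and 1227 (16.6%) lay within 2 kb of a gene's start or end, compared with 64.5% and 49.4% of all windows. Open-sea windows with levels over 50% gave 51.1% and 12.5%, and those under 10% gave 57.5% and 47.0%. Members outside genes had a median distance of 24724 bp to the nearest gene. A window of 15 or more counted cytosines lay within 10 windows of 2230 members (22.7%), beside 48.2% of all windows. The share was 16.5% in the open sea over 50% and 46.5% in that under 10%. The rule thus kept members away from core windows only, and not from all CpG-dense DNA. The shares of the members were closer to those of the highly methylated open sea than to those of the open sea under 10%.

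A dip of low methylation in methylated DNA would have neighbours with higher levels. Among the 5423 members (55.1%) with another measured window within 10 windows, the mean level of those neighbours had a median of 15.7%, and 1508 (27.8%) had a neighbour above 50%. In 2074 (38.2%) the neighbours were on average higher than the member itself. The mean level was 26.3% at the members, 19.6% in the window 1 kb before and 19.2% in the window 1 kb after. It was 20.3% to 25.7% at 2 to 10 kb before and 20.2% to 24.4% at 2 to 10 kb after. RRBS fragments favour CpG-rich DNA, so the neighbours that could be measured are not a sample of all flanking DNA. Neighbours 1 kb from any window had mean levels of 8.12% and 8.14%, so those of the members were higher than these. The level of the members themselves is set by their choice, and whether they are dips was not tested.

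**Figure D1:**
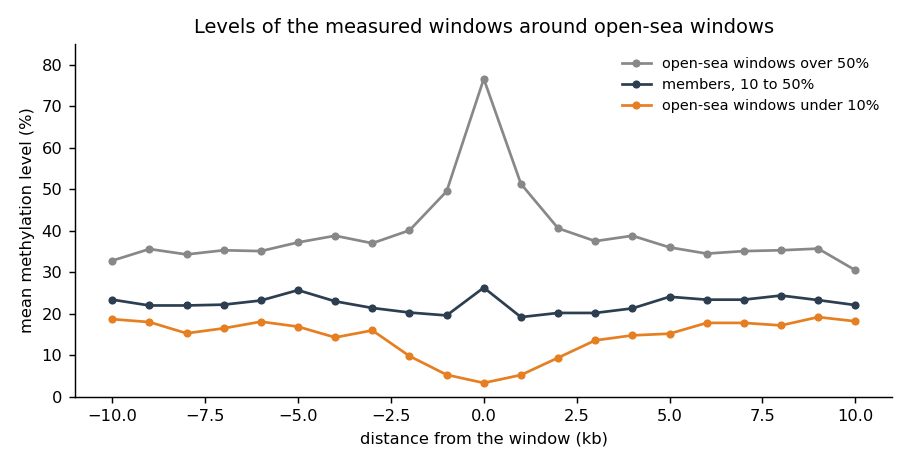
Mean methylation level (%) of measured windows against distance in kb from an open-sea window, for members, open-sea windows over 50% and open-sea windows under 10%. Members stand at 26.3% and their neighbours at 1 kb at 19.6% and 19.2%, which are the means over 1289 windows each.

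The levels of open-sea windows formed a continuous range from which the members were taken. There were 4461 open-sea windows under 2%, 3665 at 10 to 20%, 2618 at 20 to 30%, 1933 at 30 to 40%, 1622 at 40 to 50% and 1423 at 50 to 60%. No gap marked either bound. A window 420 bp from Ctsd, the gene of the lysosomal protease cathepsin D, had a level of 10.0022% and was inside the lower bound, and a window within Tekt5 had 9.9957% and was outside. At the upper bound a window within Ston2 had exactly 50% and was inside, and a window on chromosome 1 nearest to LOC101992445 had 50.0133% and was outside. These values are the criterion itself and describe the choice.

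**Figure D2:**
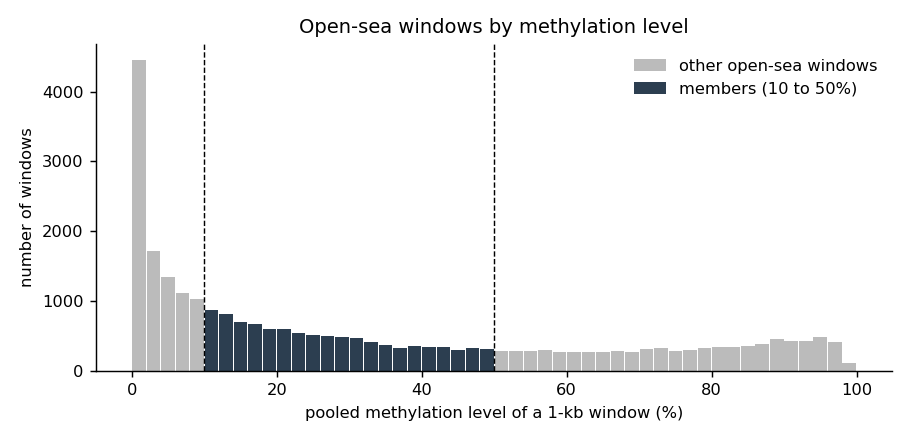
Number of open-sea windows by pooled methylation level in 2-point bins, with members in dark and dashed lines at 10% and 50%. The bins run from 4461 windows under 2% to 289 at 50 to 52% with no gap at either bound.

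The choice by level was also made in a part of the animals. When the level was taken from “Attacker” and “Parental” animals alone, 9797 windows were chosen, and 8612 of them (87.9%) were at 10 to 50% in “Father” and “Mother” animals. When it was taken from “Father” and “Mother” animals, 9807 were chosen, and 8612 (87.8%) were at 10 to 50% in the others. Both counts are of the same 8612 windows, those at 10 to 50% in both parts, so the latter adds nothing. They read the level of the choice again and only describe the choice. The members were also spread over the chromosomes. They made up 31.0% to 40.9% of open-sea windows on each of the other chromosomes and linkage groups, 25.7% (36 of 140) on LG10 and 9.76% (4 of 41) on LG12.

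Within a member the cytosines were graded more often than split. The median member had 4 counted cytosines over 96 bp, a pooled level of 24.5% and a depth of 47.2 reads per cytosine and animal. The highest and the lowest cytosine of a member differed by a median of 27.9 points. In 524 members (5.33%) one cytosine was under 20% and another over 80%, while in 1909 (19.4%) every cytosine was at 20 to 80%. Over all cytosines of members, 20.5% were under 10%, 26.2% at 10 to 20%, 41.6% at 20 to 50%, 10.1% at 50 to 80% and 1.52% above 80%. The levels of a CpG's cytosines on opposite strands, pooled over animals, differed by a median of 4.05 points in 9507 pairs, and by more than 20 points in 1.84% of them.

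Single animals, in contrast, were far apart in the same window. The SD over the 23 animals had a median of 13.7 points (quartiles 10.2 and 18.5), and the SD expected from counting reads alone had a median of 3.13 points. The SD over animals was above the counting SD in 9833 members (99.9%). In 4089 members (41.6%) an animal was at 5% or less and another at 50% or more, and in 1793 (18.2%) an animal was under 20% and another over 80%. Every animal was between 5 and 60% in 1509 members (15.3%). Open-sea windows over 50% had a similar median SD of 13.4 points, and those under 10% had 3.12 points. The spread fell with the number of cytosines, from a median of 17.6 points in the 2716 members with 3 cytosines to 9.79 in the 1360 with 9 to 14, and with depth, from 19 below the lower quartile of depth to 10.1 above the upper quartile.

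**Figure D3:**
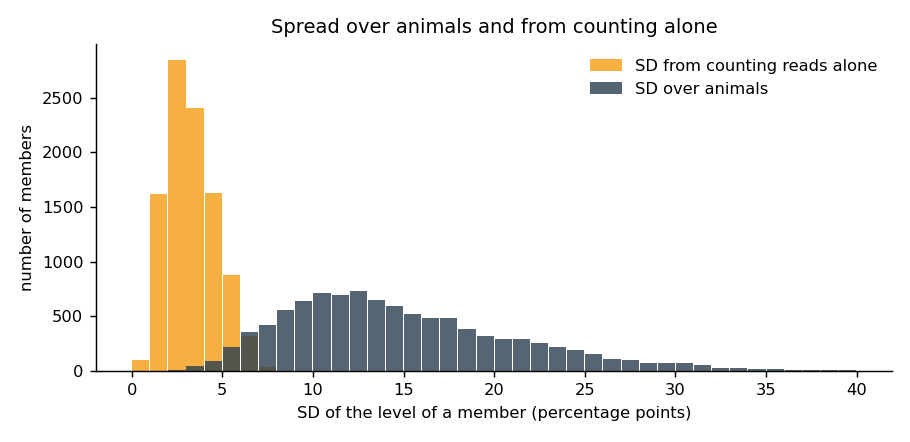
Number of members by SD of their level, over animals (dark) and from counting reads alone (orange), in 1-point bins. The median over animals is 13.7 points and the median from counting is 3.13 points.

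The deviation of an animal was only weakly correlated between the strands of the same CpGs, in members as in other windows. In 4339 members with cytosines on both strands of a CpG, the mean levels of the strands over animals followed each other across windows (Pearson r = 0.89), but the deviations of single animals from their group mean on the strands had r = 0.11 over 92979 values. Without “Attacker” replicate 6 this was 0.10, and after each animal's mean deviation was removed it was 0.09. The strand deviations had r = 0.13 in open-sea windows over 50% and r = 0.12 over all windows. In one animal the strands differed by a median of 12.9 points, and the means over animals differed by 3.67 points. These are descriptions across windows that share libraries. Deviations in 446 pairs of adjacent members had r = 0.11, and in 1226 pairs of members 2 to 10 windows apart r = 0.06. For adjacent windows r was 0.09 in the open sea over 50% and 0.06 over all windows. The SD over animals of a member was that of a median of 9.27 independent draws per animal (quartiles 5.38 and 15.6), where the median number of reads in a member and animal was 218. Reads carried no molecular identifiers and are not independent molecules, so counting errors cover read counts only. These draws take the whole spread over animals as sampling, and differences between animals and errors of measurement cannot be told apart in it.

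The least spread members still varied by more than counting error. Among those with at least 8 cytosines, the 5 with the smallest SD over animals included a window inside Chat, the gene of choline acetyltransferase, which makes acetylcholine (chromosome 6, 60151000 to 60151999, 12 cytosines). Its level was 10.3%, with a range of 6.86% to 15.9% over animals and an SD of 2.25 points. A window inside Celf4, a neuronal RNA-binding protein, had 14% (9.4% to 20.3%, SD 3.34). A window 20006 bp from Six3, a homeobox gene of the forebrain, had 16.2% (11.9% to 23.3%, SD 3.39), and a window inside Arl6ip4 had 14.4% (8.47% to 24.9%, SD 3.45). The other one lay on an unplaced scaffold, with 41.6% (38.7% to 50%, SD 3.03), where single cytosines ranged from 0.00988% to 85.5%. Its reads were uneven between the sexes, at 93752 in “Attacker”, 58134 in “Parental”, 46272 in “Father” and 7599 in “Mother” animals. The reason for this was not tested. The counting SD of these 5 windows was 0.594 to 0.981 points, and their depth was 116 to 1118 reads per cytosine and animal.

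Adjacent members were few. Of all members, 8957 stood alone, 424 runs had 2 windows and 11 runs had 3. The first of the longest runs lay inside Disp3, a sterol-sensing domain protein, on chromosome 10 from 84675000 to 84677999. Its 3 windows had levels of 14.7%, 31.1% and 29.6% and an SD over animals of 19.4, 10.8 and 16.7 points. In its first window “Attacker” animals were at 0% to 7.58%, “Mother” animals at 0% to 5.8%, “Parental” animals at 0% to 50% and “Father” animals at 8.64% to 51.3%. In the other windows of the run all 4 groups overlapped.

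Members inside genes lay in 2352 genes, and long genes held the most. Camta1, a calmodulin-binding transcription activator, held 16 members among 34 open-sea windows, and Tenm4, a teneurin of axon guidance and myelination, held 16 among 37. Gse1 (15 of 25), Kazn (15 of 20) and Rbfox1 (15 of 22), a neuronal splicing factor, tied behind them. These genes span 341 to 2360 kb. Their median member levels were 24.1% in Camta1, 20.6% in Tenm4, 23.1% in Gse1, 32.7% in Kazn and 26.6% in Rbfox1.

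Gene lists of the cell types of the DG were read for the levels of members that lie in them. Over all genes, 3870 of 10791 open-sea windows inside genes (35.9%) were members. Excitatory synapse and neuron genes held 68 members (51.9% of their open-sea windows), in 10 genes. Of these 68, the long genes Rbfox1 and Rbfox3 held 15 and 14. Genes of the Wnt pathway, which signals through Frizzled receptors and beta-catenin, held 37 of 74, in 19 genes. Markers of dentate granule neurons, the principal cells of the DG, held 17 of 43, and activity-regulated genes held 4 of 10. Markers of GABA neurons held 8 of 22, of astrocytes 6 of 14, of the oligodendrocyte lineage 8 of 22, of microglia 4 of 7 and of endothelium 8 of 15. Social and parental neuropeptide and hormone genes held 6 of 19, DNA methylation machinery genes 4 of 12 and neurogenesis genes 1 of 4. The windows of one gene share that gene, and the shares carry no test.

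The members named from each list are its 2 lowest, so a level near the lower bound can follow from that choice. In the neuronal lists they lay at 10.1% to 11.3%. The lowest members of the astrocyte, endothelial and Wnt lists were alike, at 10.5%, 10.7% and 10.6%. Prox1, the homeobox factor that specifies granule neurons, held a member at 10.6% (chromosome 6, 76235000 to 76235999). Its levels were 8.15% to 41% in “Attacker”, 0% to 14.9% in “Parental”, 5.79% to 40.7% in “Father” and 0.341% to 15.1% in “Mother” animals. A second one in Prox1 was at 11%. All 4 groups overlapped in both. Grin2a, an NMDA receptor subunit, and Shank3, a scaffold of the postsynaptic density, each held a member at 10.1%. Gad1, which makes GABA, held one at 11.2%, and Lhx6, a factor of GABA neurons, one at 11.3%.

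In glial and vascular lists the members lay at 10.5% to 27.2% (astrocytes), 19.6% to 44.8% (oligodendrocyte lineage), 20% to 48.7% (microglia) and 10.7% to 49.4% (endothelium). Slc1a3, the glutamate transporter GLAST of astrocytes, held adjacent members at 10.5% and 11.9%. Mag, a myelin glycoprotein, held members at 19.6% and 21%, the latter with 12 cytosines and an SD over animals of 5.18 points. Runx1 and Inpp5d, which are expressed in microglia, held members at 20% and 23.5%. In the Inpp5d window “Attacker” animals were at 10.7% to 75%, while the other groups were between 0% and 43.6%, and the groups overlapped. Tek, the angiopoietin receptor, and Erg, an endothelial transcription factor, held members at 10.7% and 11.3%.

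In the signalling and regulatory lists the median member level was 36.7% for activity-regulated genes, 23.3% for the Wnt pathway, 22.7% for DNA methylation machinery and 16% for the social and hormone genes. Gsk3b, the kinase that marks beta-catenin for degradation, held a member at 10.6% with a depth of 1413 reads per cytosine and animal, in which the “Attacker” range of 4.79% to 29.3% included that of every other group. Ror1, a Wnt receptor, had 10.7%. Igfbpl1 had the 1 member of the neurogenesis list, at 20.6%. Nr4a3 and Dusp1, which neuronal activity induces, had 16.1% and 35.2%, and the Dusp1 window ranged from 0% to 83.7% over animals. The serotonin receptor gene Htr2a had 11.1%, the CRH receptor gene Crhr2 13.2%, the demethylation enzyme gene Tet2 19% and the methyltransferase gene Dnmt3a 20.8%. None of the members inside listed genes was called in any of the 4 comparisons below by the Wald test. Calls were rare over all members, at 33, 63, 54 and 96 of 9838 in the order the comparisons are given below. Inside genes of any kind they were 14, 22, 20 and 35 of 3870 members. The list with the most members held 68, so few or no calls would be found in these lists at such shares. The lack of calls therefore does not set the listed genes apart.

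The mean level over all members was taken in each animal before any window was compared. It was 28.5% ± 5.89 (SD, n = 6) in “Attacker” animals, with values from 22.6% to 38.4% and a median of 27.1%. It was 26.3% ± 1.67 (SD, n = 6) in “Parental” animals (24.5% to 29.2%, median 26.1%) and 25.3% ± 0.782 (SD, n = 6) in “Mother” animals (24.1% to 26.3%, median 25.4%). The 5 “Father” animals had 24.99%, 24.58%, 24.08%, 28.93% and 29.71%, a mean of 26.5% ± 2.65 (SD, n = 5). The groups overlapped, and “Attacker” animals were the most spread, with both the lowest and the highest animal. No test was made, since the level chose the members.

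“Attacker” replicate 6 stood apart, with a mean of 38.36%, and was the single highest animal in 1686 members (17.1%). Without it the difference between “Attacker” and “Parental” means fell from 2.23 to 0.252 points, and that between “Attacker” and “Father” means from 2.04 to 0.0629 points. The 6 animals with means above 28% were 3 “Attacker”, 2 “Father” and 1 “Parental” animals, and their libraries had a median depth of 19 to 22 reads per cytosine. The other 17 had means of 22.6% to 26.8% at a median depth of 21 to 43 reads. All 6 carry replicate numbers 4, 5 or 6 in the labels. The part of depth, or of anything shared by these numbers, in the means was not tested. In open-sea windows over 50%, “Attacker” replicate 6 was also the highest, at 81.19%, and in those under 10% it had 6.237%, where the others had 2.853% to 4.297%.

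**Figure D4:**
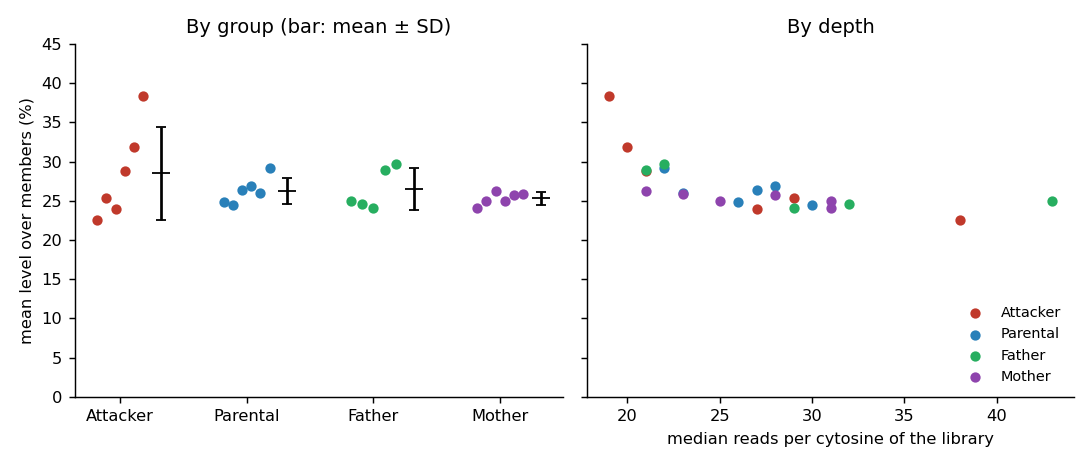
Mean level over the 9838 members in each animal (%), by group with mean ± SD at left and against the median reads per cytosine of the library at right. The groups overlap, “Attacker” replicate 6 is highest at 38.36%, and the 6 animals above 28% have a median depth of 19 to 22 reads.

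Every comparison below gives the calls of a beta-binomial Wald test of the kind used in DSS, with Benjamini-Hochberg adjustment over all 50389 windows, beside limma and edgeR on the same windows, because the Wald test made more calls than its threshold allows when it was run on simulated counts. Differences are those of the Wald fit, in percentage points of methylation, and include animals with fewer than 10 reads in a window. The levels given for single animals are those with at least 10 reads. The comparisons share groups and are not independent of each other.

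The “Attacker” vs “Parental” comparison asked whether virgin males that attacked or cared for the pup differed at these windows. The Wald test called 33 members (0.335%) at an adjusted p under 0.05, beside 0.173% of all windows. In open-sea windows over 50%, whose spread over animals is like that of the members, it called 0.397%. Of these, 25 were hypermethylated in “Attacker” (beside 0.123% of all windows) and 8 in “Parental” animals (beside 0.0496%). The median difference over members was 1.98 points towards “Attacker”, beside 0.0774 over all windows. Without “Attacker” replicate 6 it was 0.242 points. The calls were then 29 higher in “Attacker” (beside 0.127% of all windows) and 23 higher in “Parental” animals (beside 0.135%). Non-overlapping groups were found in 23 members (0.234%), beside 0.24% of all windows and 0.421% of open-sea windows over 50%. limma and edgeR called 0 members and 0% of all windows, with 580 (5.9%) and 150 (1.52%) at an unadjusted p under 0.05, beside 4.67% and 3.05% of all windows. The lowest limma adjusted p of a member was 0.361.

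Parvb, which encodes the focal adhesion adaptor beta-parvin, had values in all 12 of these animals and was higher in “Attacker” animals (chromosome 15, 26875000 to 26875999, 294 bp inside the gene's edge, 5 cytosines). “Attacker” animals were at 28.1% to 50.2% with a median of 34.2%, and “Parental” animals at 0% to 17.5% with a median of 8.83%. All “Attacker” animals lay above all “Parental” animals. The difference was 27.9 points (SE 4.26, Wald adjusted p = 7.46e-07, limma adjusted p = 0.965). “Mother” animals, at 25.6% to 57.7%, overlapped with “Attacker” animals, and the “Father” animals, at 31.4%, 9.3%, 7.55%, 21.6% and 11.7%, overlapped with both groups.

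A window on chromosome 22 (21586000 to 21586999), 46575 bp from LOC113457341, went the other way. “Attacker” animals were at 0% to 10% with a median of 3.12%, and “Parental” animals at 21.8% to 38.9% with a median of 31.1%. These groups did not overlap, and the difference was -26.1 points (SE 4.21, Wald adjusted p = 5.47e-06). It had the lowest limma adjusted p of the comparison, 0.361. “Mother” animals were in between, at 12.7% to 21.4%.

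The other windows named had values in fewer animals. In Sh2d5, which encodes an adaptor protein of the brain, 4 “Attacker” animals were at 40.7% to 66.0% and 5 “Parental” animals at 0% to 15.8%, and “Attacker” replicate 5 had 0 methylated of 6 reads. The difference was 43.2 points (SE 5.95, Wald adjusted p = 6.68e-09, limma adjusted p = 0.965). In Sel1l3, 3 of 4 “Attacker” animals were at 75% and the other one at 52.3%, while “Parental” animals were at 0% to 50% with 4 of 6 at 0%. That difference was 57.2 points (SE 10.1, Wald adjusted p = 0.000127). The window 79403 bp from Btg1, an antiproliferative gene, had 60% to 80% in 5 “Attacker” and 0% to 40.8% in 6 “Parental” animals, and a difference of 54.2 points (SE 9.62, Wald adjusted p = 0.000128).

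The “Attacker” vs “Father” comparison set the attacking virgin males against males with parental experience. The Wald test called 63 members (0.64%), beside 0.25% of all windows and 0.446% of open-sea windows over 50%. Of the 63, 39 were higher in “Attacker” (beside 0.151% of all windows) and 24 higher in “Father” animals (beside 0.0992%). Without “Attacker” replicate 6 the split turned, with 30 higher in “Attacker” (beside 0.167% of all windows) and 54 higher in “Father” animals (beside 0.232%). The split of all windows turned as well. Non-overlapping groups were found in 45 members (0.457%), beside 0.371% of all windows and 0.471% of open-sea windows over 50%. limma called 0 members, beside 0.00198% of all windows, and edgeR called 0, beside 0%, with 534 (5.43%) and 157 (1.6%) at an unadjusted p under 0.05, beside 4.51% and 3.01% of all windows. The lowest limma adjusted p of a member was 0.368.

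The window with the smallest p lay 318 bp outside Med30, which encodes a subunit of the Mediator complex (LG3, 1918000 to 1918999, 4 cytosines). The “Father” animals had 78.6%, 84.8%, 64.8%, 75.7% and 81.0%. The 5 “Attacker” animals with 10 or more reads were at 17% to 45.1%, below all “Father” animals, but “Attacker” replicate 1 had 6 methylated of 6 reads. The difference was -45.5 points (SE 6.17, Wald adjusted p = 8.17e-09), and limma had an adjusted p = 0.979. “Parental” animals were at 24.6% to 50%, again below all “Father” animals.

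In Sssca1 the “Attacker” animals were the higher group (chromosome 8, 40500000 to 40500999, 5 cytosines). They were at 50.5% to 65.0% with a median of 57.7%, and the “Father” animals had 18.2%, 16.3%, 28.8%, 30.1% and 41.2%. The groups did not overlap, and the difference was 30.1 points (SE 4.67, Wald adjusted p = 1.4e-06, limma adjusted p = 0.95). The Sel1l3 window described above was also among the 5 with the smallest p, with “Father” animals at 47.0%, 6.25%, 6.82%, 9.32% and 0% and a difference of 54.6 points (SE 8.6, Wald adjusted p = 2.18e-06). A window 22515 bp from Sept9, a septin of the cytoskeleton, was lower in “Attacker” animals by 28.9 points on the fitted scale, at 26.2% to 46.4% against 55.0% to 75.9% in “Father” animals. A window 16600 bp from Susd1 was at 62.3% to 81.9% in “Attacker” and 37.4% to 49.5% in “Father” animals, a difference of 26.9 points (SE 4.38, Wald adjusted p = 4.93e-06).

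The “Parental” vs “Father” comparison set virgin males that cared for the pup against pair-bonded fathers. The Wald test called 54 members (0.549%), beside 0.248% of all windows and 0.459% of open-sea windows over 50%. Of the 54, 24 were higher in “Parental” (beside 0.115% of all windows) and 30 higher in “Father” animals (beside 0.133%). Non-overlapping groups were found in 54 members (0.549%), beside 0.411% of all windows and 0.558% of open-sea windows over 50%. limma and edgeR called 0 members and 0% of all windows, with 566 (5.75%) and 163 (1.66%) at an unadjusted p under 0.05, beside 4.59% and 2.91% of all windows. The lowest limma adjusted p of a member was 0.403.

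The Med30 window again had the smallest p, with a difference of -41.6 points (SE 4.42, Wald adjusted p = 2.32e-16, limma adjusted p = 0.913). It uses the same “Father” values as the comparison before. Next to it in rank stood Calcrl, the receptor partner for CGRP and adrenomedullin, whose nearest member lay 110765 bp away (chromosome 4, 91804000 to 91804999). The “Father” animals had 55.7%, 53.6%, 31.6%, 52.8% and 54.9%, and “Parental” animals 0% to 37.5% with a median of 9.4%. One animal of each group overlapped. The difference was -36.4 points (SE 5.96, Wald adjusted p = 8.63e-06).

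The windows of Msi2, Aldh1a2 and Celf3 were higher in “Parental” animals. Celf3, a neuronal splicing regulator, had the lowest limma adjusted p of the comparison, 0.403 (chromosome 21, 4151000 to 4151999, 6 cytosines). “Parental” animals were at 24% to 50.4% with a median of 30.7%, and “Father” animals at 13.1%, 10.9%, 17.8%, 9.46% and 12.2%, with no overlap. The difference was 21.3 points (SE 3.77, Wald adjusted p = 6.28e-05). In the window inside Msi2, a Musashi RNA-binding protein of neural progenitors, “Parental” animals were at 48.6% to 58.9% and “Father” animals at 29.4% to 42.4%, a difference of 18.9 points (SE 3.11, Wald adjusted p = 9.02e-06). The window 28551 bp from Aldh1a2, which makes retinoic acid, had 43.7% to 56.4% against 16.8% to 37.8%, a difference of 22.5 points (SE 3.9, Wald adjusted p = 3.72e-05).

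Camta1 and Tenm4, the genes with the most members, each had 1 call in this comparison, in windows chosen here after their values were seen. In Camta1 (chromosome 10, 81802000 to 81802999) “Parental” animals were at 39.1% to 68.0% and “Father” animals at 23.2% to 47.1%, and the groups overlapped. In Tenm4 (chromosome 22, 3100000 to 3100999) “Parental” animals were at 0% to 7.93% and “Father” animals at 14.3% to 35.5%, with no overlap. The Wald adjusted p was 0.0188 for the former and 0.000199 for the latter, with limma adjusted p of 0.978 and 0.528.

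**Figure D5:**
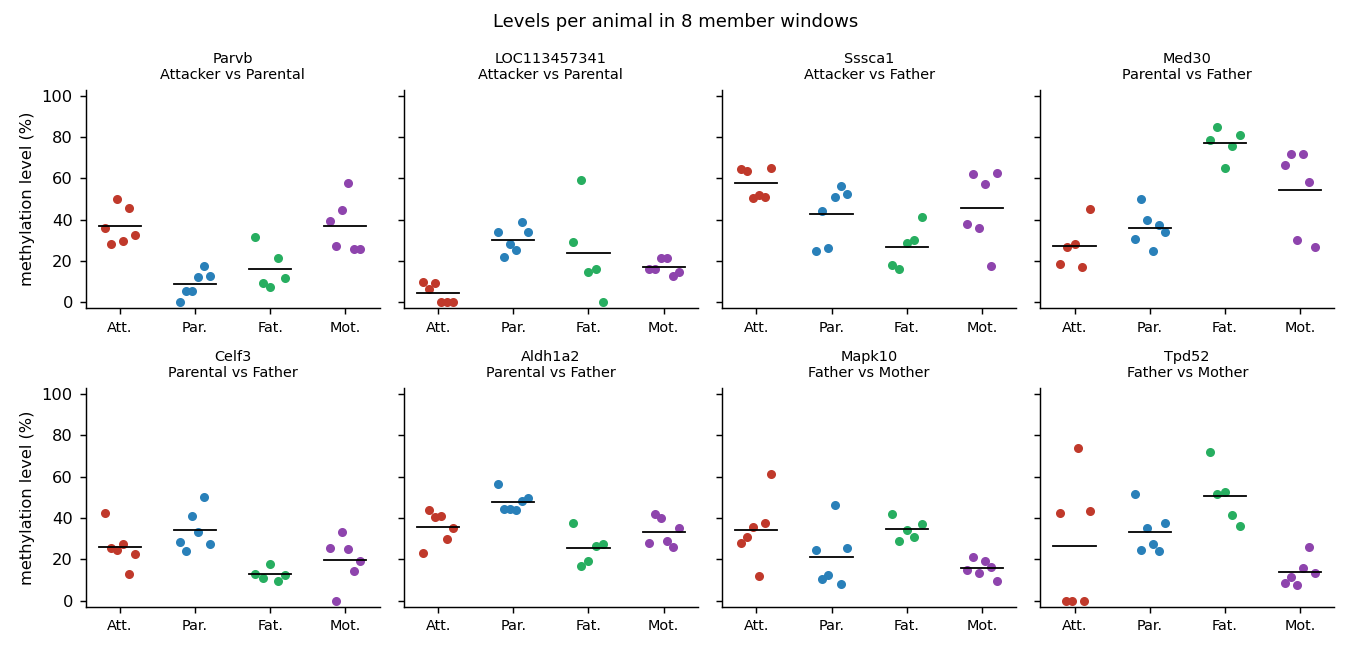
Methylation level (%) of each animal with at least 10 reads in 8 member windows named for a comparison, with the group mean as a line. The 8 were picked from the windows with the smallest Wald p. The compared groups do not overlap in any of the 8, which largely follows from that choice. The groups not compared often overlap with one or both of the compared groups.

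The “Father” vs “Mother” comparison set pair-bonded males against pair-bonded females. The Wald test called 96 members (0.976%), beside 0.728% of all windows and 0.942% of open-sea windows over 50%. Of these calls, 55 were higher in “Father” (beside 0.252% of all windows) and 41 higher in “Mother” animals (beside 0.476%). Of the 96, 29 lay on unplaced scaffolds, where the chromosome is unknown and could be a sex chromosome. With windows on placed chromosomes only, the calls were 0.539% of all 9838 members, of which 7373 are placed, so this share is not like the 0.976%. Non-overlapping groups were found in 62 members (0.63%), beside 0.665% of all windows and 0.682% of open-sea windows over 50%. limma called 2 members, beside 0.0814% of all windows, and edgeR called 0, beside 0.0318%. At an unadjusted p under 0.05 limma had 591 members (6.01%, beside 5.38%) and edgeR 178 (1.81%, beside 3.6%).

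The window with the smallest Wald p and the lowest limma adjusted p lay on an unplaced scaffold at 1617000 to 1617999 (5 cytosines). The “Father” animals had 0%, 3.53%, 6.67%, 0% and 14.3%, and “Mother” animals 29.8% to 52.5% with a median of 44.1%. These groups did not overlap, with a difference of -36.5 points (SE 4.03, Wald adjusted p = 6.52e-16, limma adjusted p = 0.0351, edgeR adjusted p = 0.626). The other males were not like the “Father” animals, since “Attacker” animals ranged from 6.67% to 100.0% and “Parental” animals from 12.2% to 93.1%. The other limma call lay on chromosome 22 (822000 to 822999), with an adjusted p of 0.0433, but its Wald adjusted p was 0.508, and its “Father” (38.5% to 69.9%) and “Mother” (27.7% to 47.6%) levels overlapped.

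Mapk10, the neuronal kinase JNK3, held a member that was higher in “Father” animals (LG1, 53245000 to 53245999, 6 cytosines). They had 41.9%, 29.0%, 34.4%, 30.6% and 37.0%, and “Mother” animals had 9.56% to 21.1% with a median of 15.8%. The groups did not overlap, and the difference was 19.1 points (SE 2.71, Wald adjusted p = 2.84e-09, limma adjusted p = 0.121). In Tpd52 “Father” animals were at 36.2% to 71.9% and “Mother” animals at 7.36% to 25.9%, a difference of 37.6 points (SE 5.5, Wald adjusted p = 1.06e-08, limma adjusted p = 0.13). Both remaining windows lay on unplaced scaffolds. In one, at 1586000 to 1586999, “Mother” animals were higher (33.4% to 44.7% against 13% to 24.8%), and in the other one, at 251000 to 251999, “Father” animals were higher (54.2% to 84.3% in 4 animals against 0% to 34.9%).

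All 6 “Mother” animals lay above all 17 males in 2 of 9838 members and in 73 of all 50389 windows, 58 of the latter on unplaced scaffolds. The count was 19 of 9675 open-sea windows under 10% and 0 of 8068 over 50%. All “Mother” animals lay below all males in 0 members and in 5 of all windows. The 2 members with “Mother” animals above were chosen after their values were seen. One lay inside Rap2c on LG10 (18254000 to 18254999), a small GTPase gene that is X-linked in mouse and human. It was at 0% in all 12 virgin males, at 0%, 0%, 0%, 6.35% and 4.0% in the “Father” animals, and at 11.6% to 39.3% in the “Mother” animals. The other one lay at 5756000 to 5756999 on the same unplaced scaffold as the window at 1617000 described above. It had 1.11% to 16.6% in all males and 19.7% to 51.2% in “Mother” animals. The Wald adjusted p of these 2 members for “Father” vs “Mother” was 0.000793 and 0.00167, and their limma adjusted p 0.232 and 0.384. Whether LG10 or the scaffold belongs to a sex chromosome was not tested.

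By the criterion of an unadjusted Wald p under 0.05 and a difference over 15 points, more members passed. There were 515 (5.23%, beside 1.9% of all windows) in “Attacker” vs “Parental”, 562 (5.71%, beside 2.07%) in “Attacker” vs “Father”, 451 (4.58%, beside 1.78%) in “Parental” vs “Father” and 505 (5.13%, beside 2.16%) in “Father” vs “Mother”. In open-sea windows over 50%, which have a like spread over animals, the shares were 4.25%, 4.7%, 4.49% and 5.47% in the same order. Of the 515, 371 were hypermethylated in “Attacker” animals (beside 1.29% of all windows), and of the 562, 400 were (beside 1.37%). This excess rested on “Attacker” replicate 6. Without it 240 members were higher in “Attacker” (beside 0.911% of all windows) and 275 in “Parental” animals (beside 1.04%). In the other comparison 247 were higher in “Attacker” (beside 0.963%) and 277 in “Father” animals (beside 1.15%). The totals without any 1 animal stayed between 490 and 678 and between 524 and 729.

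The median absolute difference of the called members was 23.4, 20.7, 21.8 and 22.6 points in the order above, with 4 or 5 counted cytosines as the median. An animal with fewer than 10 reads was present in 8 of 33, 17 of 63, 10 of 54 and 17 of 96 of them. Members inside genes, which are 3870 of all 9838 members, made up 14, 22, 20 and 35 of the calls. Windows with an animal under 20% and another over 80%, which are 18.2% of all members, made up 3, 7, 11 and 18.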

How the data were processed

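DNA methylation was measured by RRBS in 23 libraries, 1 per animal. The authors deposited read counts per library, total and methylated, at every covered CpG cytosine, each strand apart. Per the labels they used bcl2fastq, Trim Galore and Bismark, which the labels list without versions, and the genome was MicOch1.0. Each library held 64896224 to 129376223 cytosine calls, with a median depth of 19 to 43 reads per cytosine and 174 to 332 reads in the median member.

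Counts were summed over the counted cytosines of each window. The members, gene lists and tests were chosen with earlier results of these data known. Gene positions came from the RefSeq gene table of the same species, and windows on unplaced scaffolds had no gene. Each comparison was fitted on all 50389 windows with a beta-binomial Wald test of the DSS kind (numpy 2.4.6, scipy 1.17.1, Python 3.11.15), and with limma 3.58.1 on arcsine square-root cytosine levels and edgeR 4.0.16 quasi-likelihood tests on the counts (R 4.3.3). p-values were adjusted by Benjamini-Hochberg over all windows, and a call was an adjusted p under 0.05. The scripts were tested on simulated data, where the Wald test made more false calls than the threshold allows and limma and edgeR recovered fewer changed windows.

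Windows were named by the gene that holds them or the nearest gene. Those named were the 5 members with the smallest Wald p per comparison, the 2 lowest members per gene list, the 3 genes with the most members and any tied, the 5 members with the smallest SD over animals among those with at least 8 cytosines, the longest run, and 2 windows on each side of each bound. Alternatives were other models and tools, a coverage minimum of 20 reads, other bounds of membership, and each animal left out in turn. No genome sequence was used here, so no sequence is shown.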

Additional observations from a re-analysis of the deposited data

Results flagged for a closer look

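In the 18 windows named for a comparison and in the group means, 76 groups of 4 to 6 animals were looked at for a single animal far from the rest by Dixon's ratio, which flags about 1 in 20 groups by chance. Of these, 8 were flagged, all but 1 of them in the windows of Sel1l3 and Calcrl. In Sel1l3 these were an “Attacker” animal at 52.3% where the others were at 75%, a “Parental” animal at 50% where the next was at 17.5%, and a “Father” animal at 47% where the next was at 9.32%. In the Calcrl window an “Attacker” animal was at 50% with the others at 0%, a “Parental” animal at 37.5% with the next at 12.5%, a “Father” animal at 31.6% with the next at 52.8%, and a “Mother” animal at 50% with the next at 17.5%. In the window on an unplaced scaffold at 1617000 a “Parental” animal was at 93.1% and the next at 38.9%.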

How the results depend on the processing

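The number of members called depended on the test and is given here as a percentage of the 9838 members. In “Attacker” vs “Parental” (0.335%) an arcsine-link model called 0.508%, a coverage minimum of 20 reads gave 1.07%, and edgeR, limma and the Wald statistic with a t reference called 0. In “Attacker” vs “Father” (0.64%) the coverage minimum gave 1.46% and edgeR, limma and the t reference 0. In “Parental” vs “Father” (0.549%) the coverage minimum gave 1.33% and edgeR, limma and the t reference 0. In “Father” vs “Mother” (0.976%) the coverage minimum gave 1.83%, placed chromosomes alone 0.539%, limma 0.0203%, the t reference 0.0102% and edgeR 0. The t reference and the placed chromosomes were chosen after seeing the data. The share for placed chromosomes is also of all 9838 members, of which 7373 are placed. Fits without 1 animal called 0.478% (without “Parental” replicate 2) to 0.793% (without “Attacker” replicate 1) in the first comparison and 0.6% (without “Attacker” replicate 4) to 1.14% (without “Attacker” replicate 1) in the next. They called 0.681% (without “Parental” replicate 5) to 1.13% (without “Father” replicate 3) in “Parental” vs “Father” and 1.13% (without “Mother” replicate 2) to 1.6% (without “Father” replicate 3) in “Father” vs “Mother”. The cause of these changes was not tested.

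The arcsine-link model with a replicate block called 3.23%, 4.41%, 4% and 5% of members in the same order. Deviations of animals with the same number had correlations between -0.02 and 0.06 with 0 pairs over 0.1, which does not meet the bar set for pairing. Opposite strands in one animal reached only 0.11, so this check has little power. Of the 20 named differences, 19 were no longer past the threshold with limma and 20 with edgeR, and 1 was lost at the coverage minimum of 20 reads. All 225 fits without 1 animal kept the call. The differences were named for the smallest p of the same Wald test, which largely set this outcome, and nothing is drawn from it. The counts by the 15-point criterion stayed within 1.5 times under every alternative run, but without “Attacker” replicate 6 their direction turned. From 371 higher in “Attacker” and 144 in “Parental” animals they went to 240 and 275, beside 0.911% and 1.04% of all windows. From 400 higher in “Attacker” and 162 in “Father” animals they went to 247 and 277, beside 0.963% and 1.15% of all windows. This split was computed after seeing the data. The “Parental” vs “Father” difference of mean level (-0.189 points) ranged from -0.784 to 0.623 without 1 animal and so changed sign within its spread. Members with 3 cytosines had a median SD over animals of 17.6 points and those with 9 to 14 had 9.79, so the former are the least precise.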
